A study of Mus musculus with 768 samples.

Results

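The cells described here are Aldh1a1-positive, mature non-myelinating Schwann cells (SCs) of the mouse sciatic nerve at postnatal day 60 (P60). They number 196 of the 768 cells in the series, 75 of 384 in plate 1 and 121 of 384 in plate 2. Members were selected on measured values. A cell was kept with at least 1500 detected genes and 20000 reads. A non-myelinating score N (mean of log2(CPM + 1) over Scn7a, Ncam1, Ptn, Lgals3, Ntrk3 and Rab3b) had to exceed a myelinating score M (the same mean over Ncmap, Prx, Pllp, Cldn19, Fam178b and Kcnk1), where CPM is the reads of a gene per 1000000 reads of the cell. At least 2 of the 4 maturity genes C4b, F3, Entpd2 and Sparcl1 had to reach 100 CPM, and so did Aldh1a1. These 17 genes are therefore described below and not tested.

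The study profiled single SCs at several ages up to young adulthood, to follow gene expression as they differentiate, and the cells used here are those of P60. The mice were P0Cre(-/+): ReYFP(Tg/+): βAct-DsRed(Tg/+) on a C57BL/6J background. Cre switches on eYFP in the SC lineage of these mice, and DsRed is made in all cells. eYFP-positive cells were sorted singly into 384-well plates, each of which pooled cells of 2 male and 2 female mice. The 2 plates are the replicates, all cells share genotype and age, and no treated or mutant group belongs to the data used here.

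Non-myelinating, or Remak, SCs hold many small axons in separate troughs of their cytoplasm and make no myelin sheath. Aldh1a1 is a retinaldehyde dehydrogenase, an enzyme that turns retinaldehyde into retinoic acid and also clears reactive aldehydes. Complement is a cascade of plasma and tissue proteins built around C3, and clusterin (Clu) and C1 inhibitor (Serping1) are among the proteins that hold it in check.

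Aldh1a1 lies at chr19:20492715-20643465 (GRCm38, plus strand). Its promoter is shown because this gene sets the class apart. The sequence is the 250 bases upstream of the more downstream of 2 starts that RefSeq annotates (GRCm38.p6), chr19:20601718-20601967 on the plus strand. It held no match to the motif searched below, so no letters are in capitals.

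Aldh1a1: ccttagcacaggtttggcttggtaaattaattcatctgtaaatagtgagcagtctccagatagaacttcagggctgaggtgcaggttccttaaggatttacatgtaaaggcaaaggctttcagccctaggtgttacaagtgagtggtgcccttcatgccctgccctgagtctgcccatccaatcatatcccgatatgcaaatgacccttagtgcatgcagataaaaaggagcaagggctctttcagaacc

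The share of members depended on the cells it was taken of, and the plates were closest when it was taken of the cells with N above M (N>M). Of 304 kept cells in plate 1, 143 (47.0%) had N above M, and of 319 in plate 2, 236 (74.0%) did. Members made up 52.4% of the N>M cells in plate 1 (exact 95% binomial interval 43.9 to 60.9%) and 51.3% in plate 2 (44.7 to 57.8%), a mean of 51.9% ± 0.832 (SD, n = 2 plates). Of the mature N>M cells they were 67.0% and 56.8%, a mean of 61.9% ± 7.18, and of all kept cells 24.7% and 37.9%. Mature cells made up 78.3% and 90.3% of the N>M cells. Another 37 and 92 cells met the same limits but had Aldh1a1 under 100 CPM and are called Aldh1a1-negative mature cells. The remaining 31 and 23 N>M cells lacked 2 maturity genes at 100 CPM. These intervals cover counting error over cells only, and leave out the spread between plates and between mice.

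Aldh1a1 ranged widely among the members. In plate 1 its lowest, median and highest levels were 112, 1424 and 7943 CPM, and in plate 2 they were 123, 2137 and 12867 CPM. Few cells sat near the limit. The 3 members nearest to it had 112, 147 and 167 CPM in plate 1 and 123, 123 and 137 CPM in plate 2. The nearest mature cells below it had 64.6, 50.5 and 49.9 CPM, and 51.1, 10.3 and 7.78 CPM. Between 100 and 200 CPM lay 4 members in each plate, and between 50 and 100 CPM lay 2 and 1 of the negative cells.

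Cells of the other classes also held Aldh1a1 reads, more often in plate 1 than in plate 2. At least 1 read was found in 29 of the 37 Aldh1a1-negative mature cells of plate 1 (78.4%) and in 10 of 92 of plate 2 (10.9%). Among the cells with M at or above N, which carry the myelinating markers, it was found in 99 of 161 (61.5%) and in 8 of 83 (9.64%). Median depths of these M≥N cells were 163780 and 507930 reads, and those of the members 170800 and 492100. The Aldh1a1-negative mature cells had median depths of 252740 and 392860 reads, above the members in plate 1 and below them in plate 2. A level of 100 CPM or more was reached by 11 M≥N cells in plate 1 and by 0 in plate 2, which allows a share of up to 4.35% (exact binomial). It was also reached by 6 and 3 N>M cells that missed the maturity limit.

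**Figure D1:**
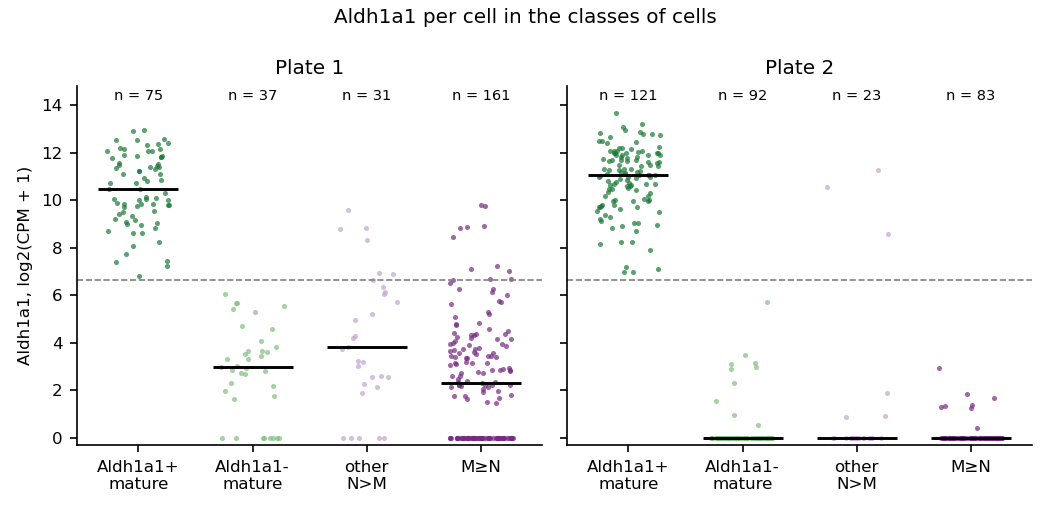
Aldh1a1 level of each kept cell, as log2(CPM + 1), in plate 1 (left) and plate 2 (right), for Aldh1a1-positive mature cells, Aldh1a1-negative mature cells, other N>M cells and M≥N cells, with the median as a bar and the limit of 100 CPM as a dashed line. The 75 and 121 members lie above the line by construction, and the cells below it sit higher in plate 1 than in plate 2.

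By the rule every member had at least 2 of the 4 maturity genes at 100 CPM, so their number per member is given as a description. All 4 reached 100 CPM in 38 of 75 and 68 of 121 members, 3 did in 28 and 41, and 2 in 9 and 12. Sparcl1, which encodes a secreted matricellular protein, did so in 100% and 95.9% of members, and Entpd2, an ectoenzyme that breaks down extracellular nucleotides, in 97.3% and 93.4%. C4b, complement component 4, did so in 80% and 76.9%, and F3, tissue factor, in 61.3% and 80.2%. F3 was thus the least widespread of the 4 in plate 1 and C4b in plate 2. In the Aldh1a1-negative mature cells F3 reached the limit in 27.0% and 57.6%, and C4b in 45.9% and 59.8%.

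The label of the class was checked against markers that the rule did not use. Sox10, the SC lineage transcription factor, reached 100 CPM in 88.0% and 49.6% of members. L1cam, an adhesion molecule of non-myelinating SCs, did so in 62.7% and 28.1% of members, against 2.48% and 0% of M≥N cells. Gfap, an intermediate filament of Remak SCs, did so in only 10.7% and 9.09% of members, against 0% of M≥N cells in both plates. Ngfr, the p75 neurotrophin receptor and a marker of non-myelinating SCs, did so in 25.3% and 14.9% of members, against 2.48% and 1.20% of M≥N cells, 18.9% and 11.96% of Aldh1a1-negative mature cells and 41.9% and 17.4% of the other N>M cells. Its summed levels were 69.1 and 48.3 CPM in members, just below or below the 69.6 and 84.8 CPM of the negative cells and the 251 and 393 CPM of the other N>M cells, so this marker does not set the members apart from them. Mbp, a myelin protein gene, reached 100 CPM in 100% and 94.2% of members, with summed levels of 4228 and 5493 CPM against 11468 and 26352 CPM in the M≥N cells.

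Of the 7 marker genes given for these cells, Aldh1a1 and F3 belong to the rule, and the other 5 had their highest median per cell in the members, in both plates. The markers were chosen with earlier results of these data known, so this order is given as a description only. Apoe, the apolipoprotein of lipid transport, had medians of 14684 and 36780 CPM in members, 5469 and 25598 CPM in Aldh1a1-negative mature cells, and 90.5 and 22.1 CPM in M≥N cells. Serping1 had medians of 861 and 1983 CPM in members against 303 and 954 CPM in the negative cells. S1pr3, a receptor for sphingosine 1-phosphate, had 614 and 517.8 CPM against 188 and 121 CPM. The classes overlapped from cell to cell for all 5 genes, as their quartiles show.

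H2-D1 and H2-K1, the classical class I antigen-presenting molecules of this strain, had medians of 2305 and 4719 CPM, and of 969 and 2191 CPM, in members. The negative cells had 1203 and 2666 CPM of H2-D1 and 644 and 945 CPM of H2-K1. For H2-D1 the sum over cells did not follow the medians in plate 1, where members had 2598 CPM and negative cells 2660 CPM. Sums weigh cells by their reads, and medians do not.

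**Figure D2:**
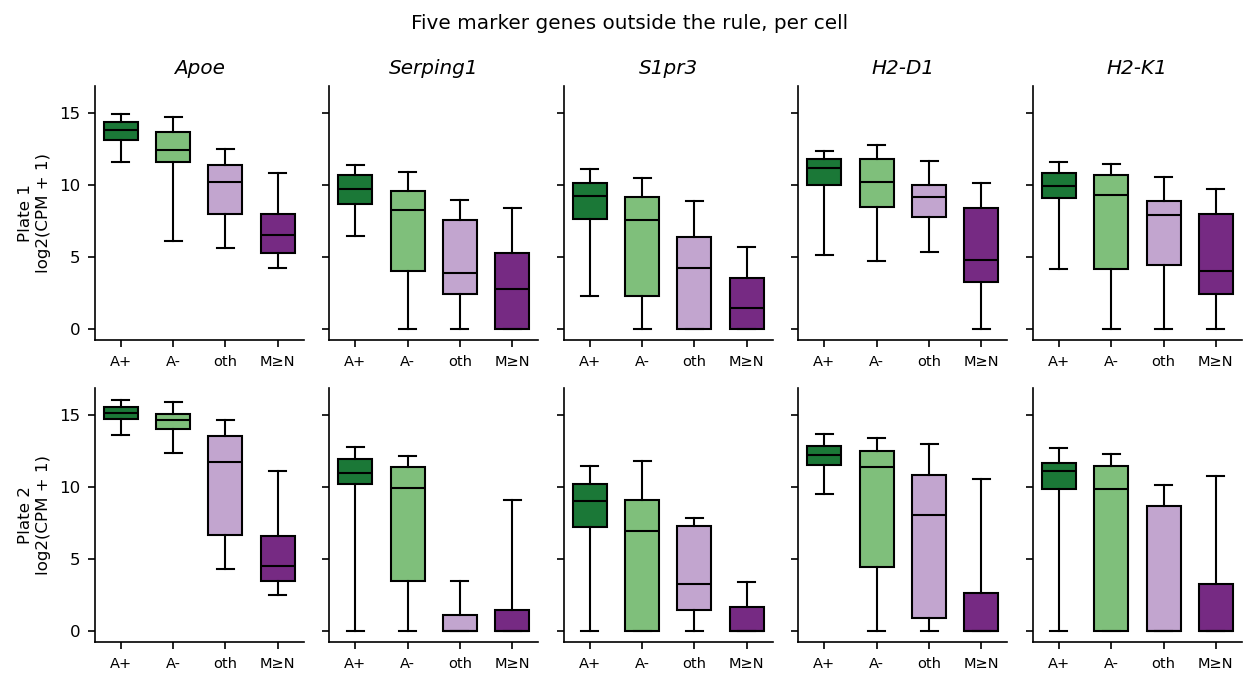
Level per cell, as log2(CPM + 1), of the 5 marker genes outside the rule in plate 1 (top) and plate 2 (bottom), where A+ stands for Aldh1a1-positive mature cells, A- for Aldh1a1-negative mature cells, oth for other N>M cells and M≥N for cells with M at or above N, and boxes show the quartiles and median with whiskers at the 5th and 95th percentiles. The A+ box has the highest median in all 10 panels, 14684 CPM of Apoe in plate 1 for example, for genes chosen with earlier results of these data known.

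To ask which genes outside the rule differed, reads were summed per plate and class and tested with the plate as a block. Members were set first against all other N>M cells (68 and 115 cells) and then against the Aldh1a1-negative mature cells alone. The genes tested were read in the same cells that were sorted into classes, so any gene that follows the rule genes from cell to cell will differ too. With 2 plates the fit has 1 residual degree of freedom. Against all other N>M cells edgeR called 0 of 12587 genes (0%) higher in members and 1 (0.00794%) lower, at a Benjamini-Hochberg adjusted p of 0.05, and 770 (6.12%) had an unadjusted p under 0.05. DESeq2, run on the same sums, called 210 (1.67%) higher and 211 (1.68%) lower. The ratio within each plate was above 0 in both plates for 2976 genes (23.6%) and below 0 in both for 3790 (30.1%).

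Against the Aldh1a1-negative mature cells edgeR called 0 of 12194 genes higher (0%) and 0 lower (0%), with 551 (4.52%) at an unadjusted p under 0.05. DESeq2 called 150 (1.23%) higher and 135 (1.11%) lower. In both plates 3281 genes (26.9%) were above 0 and 2974 (24.4%) below. A DESeq2 call therefore stands in this text only as that, and below a gene is said to have fallen only where edgeR called it. The comparisons share the member cells, so their values are given side by side and not as support for each other.

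The gene called against all other N>M cells was Serpine2 (chr1:79794197-79861180, minus strand), which encodes protease nexin 1, a secreted inhibitor of thrombin and plasminogen activators. Its summed level was 64.5 CPM in members and 722.99 CPM in the other N>M cells of plate 1, and 97.0 CPM against 713.8 CPM in plate 2. The members were thus low in both plates, 11.2 times and 7.36 times below the rest. The fitted log2 ratio was -3.07 (SE 0.347, edgeR adjusted p = 0.0316). The call was lost, with the same direction, when the plate block was left out (adjusted p = 0.999) and with each cell thinned to 20000 reads (adjusted p = 0.132). It was also lost with cells of 100000 reads or more (0.0681), an Aldh1a1 limit of 200 CPM (0.120) and without cells that carry a defining marker of another cell type (0.994), where each value is the edgeR adjusted p.

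Serpine2 was read least often in the members and most often in the cells that were not mature or had M at or above N. The share of cells at 100 CPM or more was 24% and 5.79% in members, 32.4% and 15.2% in Aldh1a1-negative mature cells, 71.0% and 56.5% in the other N>M cells, and 74.5% and 59.0% in M≥N cells. Summed levels in the negative cells were 577 and 380 CPM. Against these cells alone the fitted log2 ratio was -2.57 (SE 0.438, edgeR adjusted p = 0.635), and DESeq2 called it (adjusted p = 1.8e-06). Its promoter is shown as that of the called gene, as the 250 bases before the RefSeq start at chr1:79858666-79858915 (GRCm38.p6), read on the minus strand, and it held no match to that motif.

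Serpine2: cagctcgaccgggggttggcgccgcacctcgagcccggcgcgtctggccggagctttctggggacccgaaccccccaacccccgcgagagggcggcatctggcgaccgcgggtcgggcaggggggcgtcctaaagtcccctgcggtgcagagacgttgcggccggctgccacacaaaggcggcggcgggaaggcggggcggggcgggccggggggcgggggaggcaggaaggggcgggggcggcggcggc

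The named gene with the largest ratio on the other side was C3 (chr17:57203970-57228136, minus strand), the central component of complement. Its summed level was 573 and 596 CPM in members, 1.94 and 123 CPM in Aldh1a1-negative mature cells and 2.40 and 0.228 CPM in M≥N cells. Few members carried most of it. C3 reached 100 CPM in 18 of 75 members (24%, 14.9 to 35.3%) and 28 of 121 (23.1%, 16 to 31.7%), against 0 of 37 and 7 of 92 negative cells, and the median member had 0 CPM in both plates. The member with most C3 reads gave 50.9% of them in plate 1 and 21.8% in plate 2. Against the negative cells the fitted log2 ratio was 5.04 (SE 1.39), edgeR did not call it (adjusted p = 1) and DESeq2 did (adjusted p = 1.5e-07). Against all other N>M cells it was 5.03 (SE 1.20), and neither tool called it.

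Clu and Serpina3n, a serine protease inhibitor that reactive glia secrete, were likewise read in part of the members. Clu summed to 556 and 1089 CPM in members against 9.03 and 479 CPM in the negative cells, and reached 100 CPM in 40% and 48.8% of members against 5.41% and 17.4%. Serpina3n summed to 367 and 1003 CPM against 26.5 and 523 CPM, and reached the limit in 40% and 54.5% of members against 2.70% and 20.7%. The separation between the classes was wider in plate 1 than in plate 2 for all 3 genes. Against the negative cells the fitted log2 ratios were 3.51 (SE 1.10) and 2.34 (SE 0.671), called by DESeq2 and not by edgeR.

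**Figure D3:**
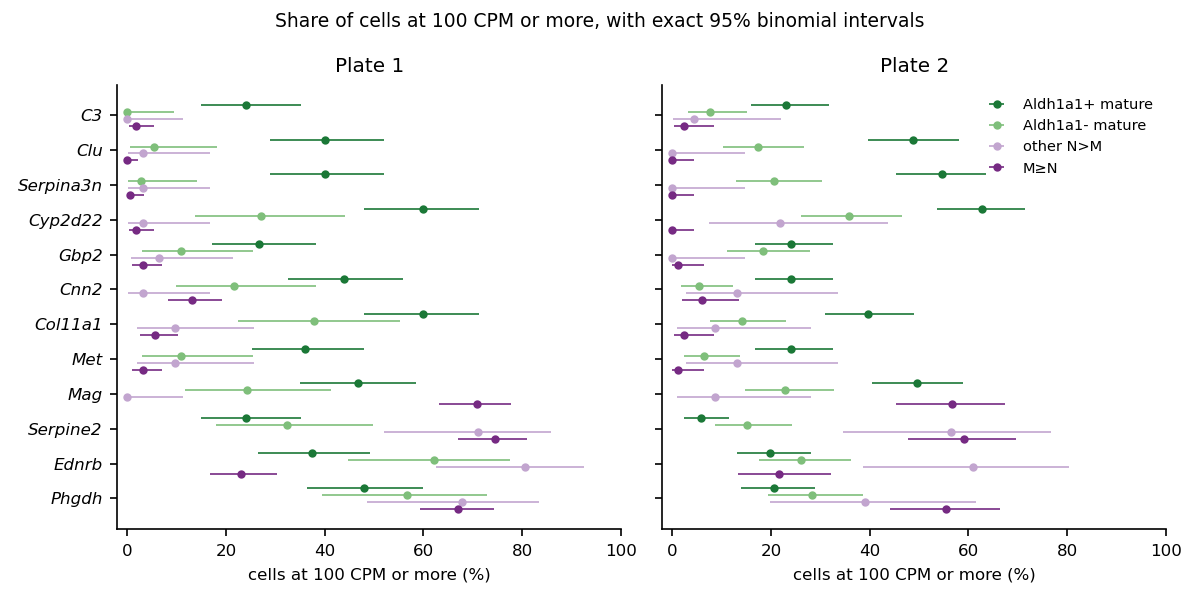
Share of cells at 100 CPM or more for 12 genes in the 4 classes of plate 1 (left) and plate 2 (right), with exact 95% binomial intervals that cover counting error only. For Clu the members stand at 40% and 48.8%, above every other class in both plates, and for Serpine2 they stand lowest.

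Within the members Clu and Serpina3n were read more often in cells with C3 than in those without. Of members with C3 at 100 CPM, 72.2% in plate 1 and 64.3% in plate 2 also had Clu, against 29.8% and 44.1% of the other members. For Serpina3n the shares were 61.1% and 78.6% against 33.3% and 47.3%. Members with C3 and those without had median depths of 172650 and 165900 reads in plate 1, and of 558510 and 473550 in plate 2. With every cell thinned to 20000 reads the shares for Clu were 78.9% against 33.9%, and 62.5% against 43.8%. The pair of Clu and Serpina3n differed between the plates. Serpina3n reached 100 CPM in 60% of members with Clu against 26.7% of the others in plate 1, and in 59.3% against 50% in plate 2, a narrow gap. None of the 3 genes reached 100 CPM in 30 of 75 and 29 of 121 members, and all 3 did in 9 and 14. In the negative cells none did in 34 of 37 and 62 of 92, and all 3 did in 0 and 1.

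Of 14 complement genes tested beside C4b, 10 were above 0 in both plates (71.4%) and 0 below, against 23.6% and 30.1% of all genes, with a median fitted log2 ratio of 1.20 against 0.027 over all genes tested. Against the Aldh1a1-negative cells the counts were again 10 and 0, with a median of 0.91 against 0.087. The medians were much larger in plate 1 than in plate 2, at 1.71 and 0.50 against all other N>M cells, and at 1.36 and 0.21 against the negative cells, so plate 2 alone gave a far smaller value. edgeR called none of them, and DESeq2 called 4 and 3. The list holds components and inhibitors alike. C1ra, a protease of the first complement complex, summed to 170 and 256 CPM in members against 64.6 and 232 CPM in the negative cells. Cd59a, which blocks the terminal pore, summed to 1846 and 2505 CPM against 1192 and 2383 CPM and reached 100 CPM in 98.7% and 98.3% of members. For both genes the gap was narrow in plate 2, and against the negative cells their fitted log2 ratios, 0.76 for C1ra and 0.34 for Cd59a, turned to -0.033 and -0.037 when 3 maturity genes were required. Serping1 summed to 1274 and 2818 CPM against 468 and 1788 CPM, and its fitted ratio was 1.04 on the log2 scale (SE 0.334, edgeR adjusted p = 1).

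The other genes named for higher levels had smaller ratios that were closer between the plates. Over the 12 named against all other N>M cells (C3, Hrct1, Cnn2, Fads6, Cyp2d22, Gbp2, Clu, Col11a1, Htra2, Serpina3n, Sfrp5 and Thra), within-plate log2 ratios ran from 1.29 to 7.36. Their edgeR adjusted p ran from 0.267 to 0.672, so none was called, and DESeq2 called 10, where it called 1.67% of all genes higher. The 12 were picked for large ratios in these same sums, so that count is no separate support. Cyp2d22, a cytochrome P450 enzyme, summed to 483 and 986 CPM in members against 200 and 379 CPM in the negative cells, a fitted log2 ratio of 1.317 (SE 0.334). Cnn2, an actin-binding calponin, summed to 225 and 228 CPM against 87.9 and 52.9 CPM, with a log2 ratio of 1.72 (SE 0.463). Fads6, a fatty acid desaturase family member, summed to 133 and 306 CPM against 55.1 and 108 CPM.

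Col11a1, a fibrillar collagen chain, summed to 416 and 244 CPM in members against 198 and 47.4 CPM in the negative cells. Sfrp5, a secreted antagonist of Wnt ligands, summed to 1506 and 1602 CPM against 856 and 837 CPM, and reached 100 CPM in 82.7% and 72.7% of members. Against the Aldh1a1-negative cells the named genes were C3, Met, Thra, 0610012G03Rik, Cnn2, Itga7, Cyp2d22, Fads6, Hrct1, Gbp2, Immt and Clu, with 5 called by DESeq2 and none by edgeR (adjusted p = 1 for all 12). Met, the receptor for hepatocyte growth factor, summed to 194 and 130 CPM against 28.1 and 41.2 CPM and was among these 5 (log2 ratio 2.22, SE 0.603). DESeq2 called 1.23% of all genes higher in this comparison, and these 12 genes were likewise picked for their ratios. Of the 16 genes named in either comparison, 8 were named in both. Exons of Htra2, Thra, Itga7 and Immt overlap a gene on the opposite strand, and since the strand setting of the counting was not stated, their counts are uncertain.

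Phgdh, the first enzyme of serine synthesis, and Ednrb, the endothelin receptor type B, led the genes named for lower levels after Serpine2. Phgdh summed to 102 and 183 CPM in members against 362 and 484 CPM in the Aldh1a1-negative cells, and Ednrb to 166 and 146 CPM against 493 and 379 CPM. Both were lower in members in both plates, 3.54 and 2.64 times for Phgdh and 2.97 and 2.595 times for Ednrb. Against all other N>M cells the fitted log2 ratios were -1.67 (SE 0.328) and -1.66 (SE 0.331), each with an edgeR adjusted p of 0.267. DESeq2 called both genes in both comparisons. Ednrb reached 100 CPM in 37.3% and 19.8% of members and 62.2% and 26.1% of negative cells.

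The other genes named for lower levels were Rpl5, 2010111I01Rik, Dnajc19, Btg1, Tagln2, Glrx3, Itgb8, Rpl15 and Srsf3 against all other N>M cells. Against the negative cells they were Dnajc19, Pnn, Btg1, Rbm5, Srsf3, Irf3, Rps28, Ccser2, Gng11 and Maf1. Of the 12 in each comparison DESeq2 called 7 and 4, where it called 1.68% and 1.11% of all genes lower. Apart from Serpine2, these genes too were picked for their ratios in the same sums. Btg1, an antiproliferative gene, summed to 102 and 93.2 CPM in members against 407 and 219 CPM in all other N>M cells. Itgb8, an integrin subunit that activates latent TGF-β, summed to 236 and 49.8 CPM against 483 and 129 CPM. Of the 19 genes named in either comparison, 5 were named in both. The counts of Rpl5, 2010111I01Rik, Dnajc19, Rpl15, Irf3 and Rps28 are uncertain, since exons of a gene on the other strand overlap theirs.

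**Figure D4:**
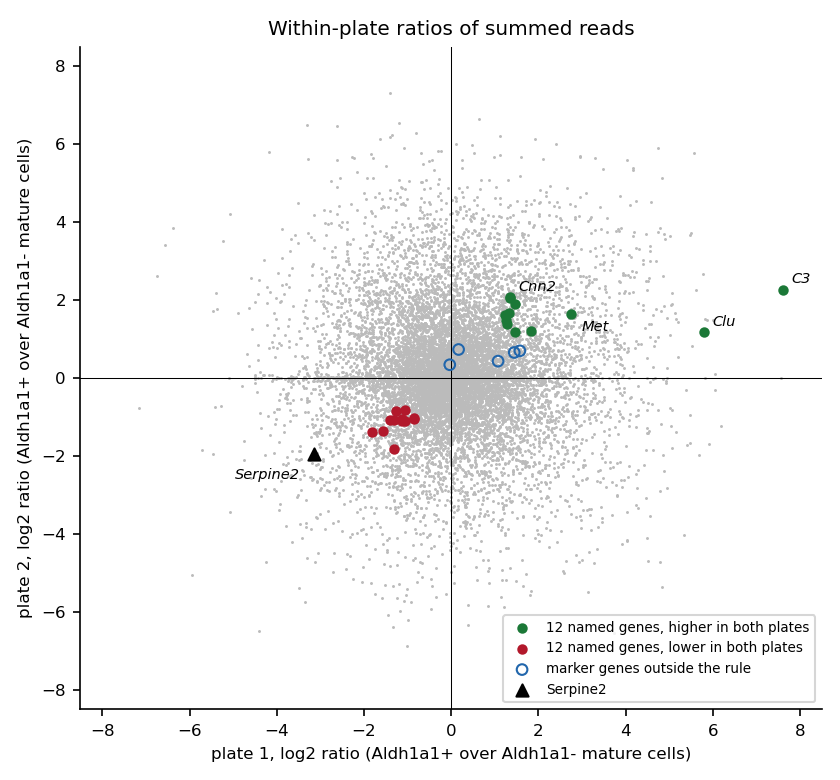
Log2 ratio of summed reads, Aldh1a1-positive over Aldh1a1-negative mature cells, in plate 1 (x axis) and plate 2 (y axis) for the 12194 genes tested, with the genes named in this comparison, the 5 marker genes outside the rule and Serpine2 marked. C3 and Clu stand far to the right, with plate 1 ratios of 7.61 and 5.79, and the other named genes lie to the left of them.

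Around Aldh1a1 itself, the retinoid genes gave 16 tested, of which 9 (56.2%) were above 0 in both plates and 3 (18.8%) below, against 23.6% and 30.1% of all genes. Those shares of all genes also stand behind the counts of the lists that follow, and 26.9% and 24.4% behind those against the negative cells. The median was 0.44, and 0.36 in plate 1 and 0.22 in plate 2. Against the negative cells 6 (37.5%) were above and 3 below. The genes above in both comparisons include Aldh1a7, whose reads cannot always be told apart from those of the rule gene Aldh1a1. Dhrs3, which returns retinaldehyde to retinol, summed to 558 and 1727 CPM in members against 119 and 1174 CPM in the negative cells, and reached 100 CPM in 58.7% and 76.9% of members against 24.3% and 40.2%. Crabp1, a retinoic acid binding protein, reached 100 CPM in 24% and 9.92% of members against 5.41% and 0%, with 76.8% of its reads in plate 1 from 1 member. Rdh5, a retinol dehydrogenase, went the other way, with 214 and 151 CPM against 291 and 331 CPM in all other N>M cells, but its exons overlap Bloc1s1 on the same strand. edgeR called none of the 16, and DESeq2 called 3 of them higher against all other N>M cells, where it called 1.67% of all genes higher.

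Aldh1a7, the near copy of Aldh1a1, reached 100 CPM in 6.67% and 4.96% of members and in 0% of the negative cells of both plates. It summed to 33.3 and 59.1 CPM in members. Reads of such a copy cannot always be told apart from those of Aldh1a1, so this value is uncertain. Of 33 tested genes for aldehyde and oxidant detoxification, 15 were above 0 in both plates and 6 below, with a median of 0.40. Prdx6, a peroxiredoxin, summed to 1586 and 1945 CPM in members against 502.6 and 1569 CPM in the negative cells, and Gstm1, a glutathione transferase, to 584 and 1224 CPM against 230 and 763 CPM. Gstt1, of another glutathione transferase class, reached 100 CPM in 12% and 13.2% of members against 0% and 1.09% of negative cells.

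Of 31 interferon response genes, 17 were above 0 in both plates and 2 below, with a median of 0.51, and against the negative cells 15 of 30 were above and 3 below. Gbp2, an interferon-induced GTPase, summed to 140 and 283 CPM in members against 38.7 and 122 CPM in the negative cells. Ifit3, an interferon-induced antiviral protein, summed to 198 and 476 CPM against 151 and 241 CPM, and 1 member gave 36.7% and 48.2% of its member reads. Ifitm3, a membrane protein of the same response, summed to 2031 and 1688 CPM against 1698 and 988 CPM. None of these genes was called by edgeR in either comparison, and DESeq2 called 2 of the list against all other N>M cells and 0 against the negative cells.

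The interferon-stimulated response element core, written GAAANNGAA, was looked for on both strands in the 250 bases upstream of each RefSeq start, after the values of the genes had been seen. It was found in 3 of 11 promoters of the genes named for higher levels (0610012G03Rik, Gbp2 and Sfrp5), in 1 of 19 of those named for lower levels (Rpl5) and in 7.13% of 32851 promoters in all. Promoters were at hand for 11 of 16 and 16 of 19 genes. The promoter of Gbp2 is shown for its match, which is in capitals, at chr3:142620413-142620662 on the plus strand (GRCm38.p6).

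Gbp2: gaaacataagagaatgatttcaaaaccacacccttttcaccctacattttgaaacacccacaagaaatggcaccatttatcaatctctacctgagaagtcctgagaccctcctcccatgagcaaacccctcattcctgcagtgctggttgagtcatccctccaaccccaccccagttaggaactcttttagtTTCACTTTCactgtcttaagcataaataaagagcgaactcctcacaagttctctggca

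The genes of class I antigen presentation were mixed. Of 25 tested, 11 were above 0 in both plates and 8 below, with a median of 0.25 (0.067 in plate 1 and 0.15 in plate 2), and against the negative cells 8 were above and 6 below, with a median of 0.088 that changed sign with the processing. Against all other N>M cells the fitted log2 ratios were 0.49 (SE 0.246) for H2-D1 and 0.86 (SE 0.271) for H2-K1, and against the negative cells 0.15 (SE 0.280) and 0.44 (SE 0.305). The direction of both against the negative cells was not stable. With 3 maturity genes required they were -0.14 and -0.041, and H2-D1 was also -0.028 without cells that carry a defining marker of another type and -0.034 in plate 1 alone. B2m, the shared light chain, summed to 9390 and 4671 CPM in members and 8964 and 4287 CPM in all other N>M cells. H2-M3, a nonclassical class I gene, reached 100 CPM in 10.7% and 7.44% of members and 2.70% and 3.26% of negative cells, and was the gene of this list that DESeq2 called (adjusted p = 0.019).

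Among apolipoprotein and lipid transport genes, 10 of 25 were above 0 in both plates and 3 below, with a median of 0.23. Apoe summed to 16017 and 36618 CPM in members against 7613 and 27096 CPM in the negative cells, 2.10 and 1.35 times higher. The fitted log2 ratio was 0.75 (SE 0.286) against the negative cells and 1.19 (SE 0.275, edgeR adjusted p = 0.275, DESeq2 adjusted p = 0.0098) against all other N>M cells. Abca8a, a lipid transporter of the ABC family, summed to 1970 and 1119 CPM in members against 1156 and 731 CPM in all other N>M cells. Of 15 genes of sphingosine and lysophosphatidic acid signalling, 6 were above 0 in both plates and 5 below. S1pr3 summed to 842 and 807 CPM against 282 and 497 CPM in the negative cells, with a fitted log2 ratio of 1.13 (SE 0.370).

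On the lower side stood the cell cycle genes, of which 0 of 28 were above 0 in both plates and 24 (85.7%) below, with a median of -1.65 (-2.01 in plate 1 and -0.82 in plate 2). Against the Aldh1a1-negative cells 1 was above and 19 below, with a median of -1.32 (-1.82 and -0.27), which became 0.24 when 3 maturity genes were required. The lower values thus rested mainly on plate 1. Top2a, the topoisomerase of dividing cells, summed to 43.9 and 0.22 CPM in members against 291 and 1.64 CPM in all other N>M cells. Cells with several of these genes were almost all from plate 1. Cells with 5 or more of these genes at 100 CPM were 10 of 75 (13.3%) and 0 of 121 members, 7 of 37 (18.9%) and 1 of 92 negative cells, and 10 of 31 (32.3%) and 2 of 23 other N>M cells. Among M≥N cells they were 15 of 161 (9.32%) and 1 of 83. The list also holds D-type cyclins and inhibitors of cyclin-dependent kinases, so this is not a count of dividing cells. For the members of plate 2 a count of 0 allows up to 3.003%.

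Of 78 cytosolic ribosomal protein genes, 0 were above 0 in both plates and 63 (80.8%) below, with a median of -0.40 (-0.62 in plate 1 and -0.45 in plate 2), and against the negative cells 2 were above and 40 below (median -0.30, and -0.41 and -0.13 by plate). The share of reads in these genes had a median of 2.51% and 1.07% in members, 3.67% and 1.22% in negative cells and 5.10% and 2.48% in other N>M cells. Mitochondrial reads had medians of 2.53% and 1.16%, against 3.23% and 1.29%, and 3.73% and 1.70%. At 20000 reads the median member showed 2244 and 1326 genes, the median negative cell 2416 and 1116. The part of RNA content and quality in the gene results was not tested.

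Of 28 collagen and matricellular genes, 4 were above 0 in both plates (among them Col11a1) and 16 below, with a median of -0.20 (-0.13 in plate 1 and -0.47 in plate 2). Postn, periostin, summed to 38.2 and 1.86 CPM in members against 438 and 119 CPM in the negative cells, and reached 100 CPM in 10.7% and 0% of members against 43.2% and 10.9%. Its fitted log2 ratio was -4.74 (SE 0.721, edgeR adjusted p = 0.170) against all other N>M cells, where DESeq2 called it and edgeR did so without a filter on low counts. Thbs2, a thrombospondin, summed to 154 and 36.9 CPM in members against 404 and 191 CPM in all other N>M cells. Col1a1, a chain of the main fibrillar collagen, summed to 493 and 171 CPM against 842 and 404 CPM.

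**Figure D5:**
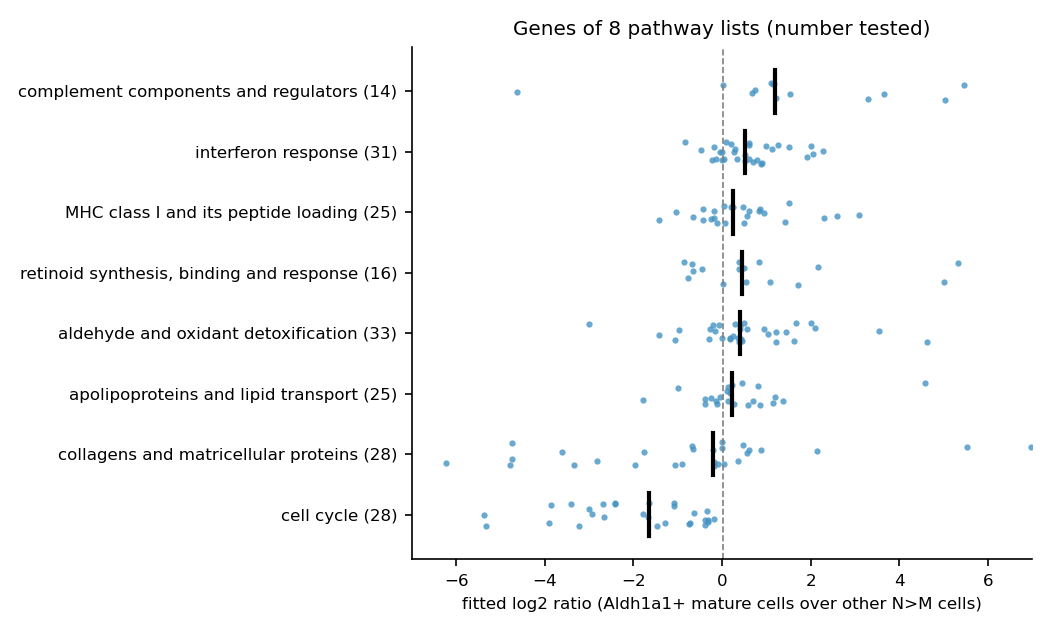
Fitted log2 ratio of members over all other N>M cells for each tested gene of 8 lists, with a bar at the list's median and the median of all genes as a dashed line. The axis ends at 7 in size, and 3 genes beyond it are not shown. Complement genes lie mostly to the right of the line (median 1.20) and cell cycle genes to the left (median -1.65).

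Egr2, the transcription factor of myelination, summed to 45.5 and 4.37 CPM in members against 108 and 91.6 CPM in the negative cells and 325 and 645 CPM in M≥N cells. Mag, a myelin adhesion protein of the sheath, had the opposite order within the mature cells. It summed to 239 and 490 CPM in members against 70.3 and 255 CPM in the negative cells, and reached 100 CPM in 46.7% and 49.6% of members against 24.3% and 22.8%. The M≥N cells had 579 and 913 CPM of Mag. Of the 20 myelin genes tested, 9 were above 0 in both plates and 7 below, with a median of 0.013 (-0.075 in plate 1 and 0.066 in plate 2). Cdh2, N-cadherin, an adhesion molecule of Remak SCs, summed to 311 and 182 CPM in members against 47.5 and 167 CPM in the negative cells, a wide gap in plate 1 and a narrow one in plate 2. It was chosen for its role, and the Remak identity genes as a list had no common direction against the negative cells. Gfap, Cdh2, Chl1, Itga1 and Vim were above 0 in both plates, and Ngfr, Ednrb, Sox2, Cd44 and Nes below.

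Most of the remaining lists were mixed or short, and edgeR called only Serpine2 among their genes. Above and below 0 in both plates were 7 and 1 of 14 ion channels, 7 and 7 of 20 Remak identity genes, 7 and 1 of 14 pan-SC genes, and 5 and 4 of 13 coagulation and serpin genes. For ion channels and pan-SC genes these are 50% above and 7.14% below, for Remak genes 35% each and for coagulation genes 38.5% and 30.8%, where all genes gave 23.6% and 30.1%. The ion channels, a list of those of non-myelinating cells, had a fitted median of 1.17, above the 0.45 of plate 1 and the 0.52 of plate 2. Only the fitted median was near that of the complement genes as a pair, since their plates gave 1.71 and 0.50. Against the negative cells 7 of 12 ion channels were above and 0 below, with a median of 0.79. The counts were 2 and 5 of 13 purine signalling genes, 2 and 1 of 7 class II genes, 2 and 6 of 20 cholesterol synthesis genes, and 1 and 4 of 8 repair SC genes. They were 3 and 5 of 12 trophic factors, 3 and 4 of 12 cytokines, 5 and 8 of 22 basal lamina genes, and 4 and 9 of 26 genes of the response to dissociation. Against the negative cells 4 of 6 class II genes were above and 0 below, with a median of 1.49 (1.10 in plate 1 and 0.45 in plate 2), and DESeq2 called none. Against all other N>M cells the class II median was 0.57 (0 in plate 1 and 0.65 in plate 2). Cd74 was the gene below there, and DESeq2 called 1 gene of the list lower. Among the coagulation genes, Plat, tissue plasminogen activator, a protease that Serpine2 inhibits, summed to 282 and 768 CPM in members against 147 and 652 CPM in the negative cells.

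The level of Aldh1a1 went along with that of several of these genes over the 112 and 213 mature cells of the plates. These correlations share the cells, their depth and the rule, of which Aldh1a1 is itself a part, and are given as a description. Spearman's rho with Aldh1a1 was 0.55 and 0.37 for Apoe, 0.55 and 0.37 for Clu, and 0.45 and 0.31 for Serping1. Within the members alone it was 0.55 and 0.15 for Apoe, and 0.52 and 0.17 for Clu, so it was weak inside the class in plate 2. For C3, Serpina3n, S1pr3 and H2-D1 it ran from 0.21 to 0.24 within the members of plate 1 and from -0.056 to -0.020 within those of plate 2. Gbp2 had 0.12 and -0.0083 over the mature cells, and -0.014 and -0.15 within the members. For Ednrb rho was -0.42 and -0.16 over the mature cells, and -0.35 and -0.0085 within the members.

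Markers of other nerve cell types were low or shared with SCs. Of 16 macrophage genes none reached 10 CPM in the summed members, with sums of 17.4 and 16.2 CPM over the list against 13.5 and 86.4 CPM in the negative cells, and Ptprc, Aif1, Adgre1 and Mrc1 had no read. The sums over the list were 4.83 and 3.01 CPM for 12 endothelial genes (Cdh5 with no read) and 86.3 and 147 CPM for 10 pericyte genes, most of it Cspg4 (Rgs5 with no read). They were 390 and 367 CPM for 10 perineurial genes, nearly all Itgb4, 25.6 and 27.2 CPM for 13 lymphocyte, mast cell and granulocyte genes, nearly all Kit, and 45.2 and 0.445 CPM for 10 neuron and muscle genes. No adipocyte gene had a read.

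The fibroblast list was the exception in level, with sums of 4990 and 7086 CPM in members against 5136 and 5890 CPM in the negative cells, most of it Gsn and collagen genes that SCs also express. The defining fibroblast markers were Dcn, Lum and Pdgfra. Pdgfra had no read in the members, Lum had none in plate 1 but some in plate 2, and Dcn was read in both plates. At least 2 of the 14 list genes reached 100 CPM in 74 of 75 and 100 of 121 members. In the negative cells they did so in 36 of 37 and 72 of 92. Cells with a defining marker of another type at 100 CPM were 12 and 14 of the members, and 4 and 11 of the negative cells. Without such cells edgeR called 0 genes in both comparisons, and their part in the results was not tested beyond that.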

How the data were processed

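Single SCs were sequenced by a miniaturised Smart-Seq2 protocol without molecular identifiers. Raw read counts of 25700 genes in 768 cells were deposited by the authors as 1 table. The submitters' processing notes name bcl2fastq, STAR 2.6.1c, featureCounts and the build GRCm38.p5. Whether counting used strand, and how reads shared by several genes were treated, were not given in the sources used here. The identifiers are mouse genes, of which 25664 were found in GENCODE M21 (GRCm38), used for symbols and coordinates.

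Members, marker genes and lists were chosen with earlier results of these data known. CPM used the total reads of a cell, which ran from 1025 to 4076083, and from 26780 to 4076083 among members, and a pseudocount of 1 CPM stood in log levels and within-plate ratios. No pair of cells had identical counts, and no cell is in both plates. Cells were sorted singly into wells and doublets were not called, so a well that received 2 cells would not have been noticed. Counts were summed per plate and class and tested with edgeR 4.0.16 in R 4.3.3 (quasi-likelihood test with the plate as block, TMM factors, genes filtered by filterByExpr at a count of 10, Benjamini-Hochberg adjustment over all genes tested, limit 0.05). The block pairs the classes, since both came from the same mice on the same plate. The 17 rule genes stayed in the sums and out of the tests. The SE beside a fitted log2 ratio was derived from the test, as the ratio's size divided by the square root of the edgeR F statistic. p-values rest on how far the ratio of the classes within a plate differed between the 2 plates, each a pool of mice. Differences in level between the plates are taken up by the block. DESeq2 1.42.0, other size factors, no filter, no block, thinning to 20000 reads, other depth and rule limits, and each plate alone were the alternatives. Shares have Clopper-Pearson intervals (Python 3.11.15, scipy 1.17.1). The fit was tested on simulated counts.

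For each comparison and direction, named genes were the called ones first, filled up to 12 with the largest within-plate ratio (the smaller of both plates) among genes of the same sign in both plates and at 100 CPM in at least 20% of cells in the higher class. The marker genes and list genes that the text needed for a role were added. 23 pathway lists and 8 lists of other cell types were counted, with no set test. A gene counted as above or below 0 by its within-plate ratios.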

Additional observations from a re-analysis of the deposited data

Results flagged for a closer look

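Aldh1a1 reads were also found in the cells that had been left out for low depth or few genes, which entered no comparison. In plate 1 the pooled reads of these 80 cells held 652 CPM of Aldh1a1 (210 of 322012 reads), against 27.8 CPM in the M≥N cells of the plate. In plate 2 the 65 cells left out held 5.29 CPM (6 of 1134798 reads), against 0.140 CPM. Members, which are high by the rule, had medians per cell of 1424 CPM in plate 1 and 2137 CPM in plate 2. Whether cells like the members were among those left out was not tested. At least 1 read was found in 57 of 80 and 6 of 65 of the cells left out. At such depths 1 read can exceed 100 CPM, so these cells cannot be sorted into the classes. Each comparison held 4 sums, 2 per class, so no sum was tested as far from the others.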

How the results depend on the processing

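The share of members among N>M cells, 51.9% as reported, was 52.8% with an Aldh1a1 limit of 50 CPM, 49.6% with 200 CPM, 46.2% with 3 maturity genes, 54.5% with N above M by 1, and 51.3 to 52.4% in either plate alone. Of genes called against all other N>M cells (1, Serpine2), there were 421 by DESeq2, 3 with no filter on low counts (Serpine2, Postn and, higher, Gsg1l) and 1 with RLE size factors, an Aldh1a1 limit of 50 CPM, 3 maturity genes or N above M by 1. There were 0 without the replicate block, with cells thinned to 20000 reads, with cells of 100000 reads or more, with a limit of 200 CPM, and without cells that carry a defining marker of another type, an alternative chosen after seeing the data. The log2 ratio of Serpine2 was then -3.02, -2.64, -3.25, -3.06 and -2.53 in the same order. Against Aldh1a1-negative mature cells (0 genes called) there were 285 by DESeq2, 1 with 3 maturity genes (Fam241a, lower), and 0 under the other alternatives, the fit without the replicate block among them. Those 2 genes with no filter and Fam241a were named after their values were seen. Leaving out a plate leaves 1 sum per class and no test.

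Some directions turned, and the cause was not tested. With 3 maturity genes, against the negative cells, the log2 ratios were -0.033 for C1ra, -0.037 for Cd59a, 1.55 for Ccnb1, 0.64 for Cenpe, -0.14 for H2-D1 and -0.041 for H2-K1, and the list medians were 0.24 for cell cycle and -0.052 for class I genes. The class I median was -0.061 without the replicate block, -0.10 without cells with a defining marker and -0.034 without replicate 2. H2-D1 was -0.028 without cells with a defining marker and -0.034 without replicate 2 (0.34 without replicate 1). B2m, -0.039 as fitted, was 0.052 when thinned, 0.11 without replicate 1 (-0.17 without replicate 2) and 0.15 without the cell with most reads in plate 2. Against all other N>M cells Psmb8 was 0.019 when thinned. Leaving out cells with 2 or more genes of another cell type list removed 74 of the 75 members of plate 1. edgeR then called 0 of 6111 genes against all other N>M cells and 0 of 5382 against the negative cells, and since 1 member stood for plate 1 this setting was not counted among the alternatives. The fit has 1 residual degree of freedom, and CPM steps are coarse in shallow cells, where 1 read of 20000 is 50 CPM.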
